A study of Rattus norvegicus with 6 samples.

Results

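Globin and haem synthesis genes were followed in kidney RNA of 2 rat strains, through every probe set whose gene symbol was Hba-a1, Hba-a3, Hbb, Alas2, Alas1, Alad, Fech, Urod or Slc4a1ap, and through the probe sets that carry several globin symbols at once. The rule found 14 probe sets of the 31099 on the array, naming 14 genes of 14863. Of these probe sets, 8 carried 1 symbol, and 6, all of globins, carried several: 3 named Hba-a2 with Hba-a1, 2 named Hbbl1 with Hbb-bs, and 1 named Hbq1b with Hbq1. Hba-a1 was therefore measured only together with Hba-a2.

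The study compared kidneys of 3 male Dahl salt-sensitive rats, labelled Dahl(S), with those of 3 male Lewis rats. Both strains ate food with 8% NaCl for 8 weeks from an age of 5 weeks. TRIzol-extracted total RNA was labelled with biotin, and each rat had its own array. Rats on another diet were not analysed here, so an inherited strain difference and a difference in the response to salt cannot be told apart. Whether the kidneys were flushed of blood before extraction is not given in the sources used here.

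Haemoglobin is assembled from alpha-like and beta-like globin chains, each holding a haem group, and makes up most of the protein of red cells. Young red cells, the reticulocytes, have lost their nucleus but still carry globin mRNA, so blood left in the vessels is a known source of globin RNA in an organ extract. Haem is made in nearly all cells by a chain of enzymes that starts with 5-aminolevulinate synthase: Alas2 encodes the form of red cell precursors, and Alas1 the form of other tissues, the kidney included. Alad and Urod encode later enzymes of the chain, and Fech encodes ferrochelatase, which puts the iron in. Slc4a1ap encodes kanadaptin, which is neither a globin nor a haem enzyme and was named for its reported binding to the kidney form of the anion exchanger Slc4a1.

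The alpha-like genes lie together on chromosome 10 and the beta-like genes on chromosome 1. The stretches before the starts of Hba-a1, Hba-a2, Hba-a3, Hbb and Hbb-bs are shown because several globin genes are near copies that share probe sets. They are the 250 bases before each start in the RefSeq annotation of GRCr8, all on the minus strand, at chr10:15842581-15842830 for Hba-a1, chr10:15829139-15829388 for Hba-a2, chr10:15816944-15817193 for Hba-a3, chr1:167663722-167663971 for Hbb and chr1:167631631-167631880 for Hbb-bs. Capitals mark short motifs of many globin promoters on either strand: GATAA, known to bind GATA factors, CACCC, known to bind factors of the Klf1 family, and CCAAT, the CCAAT box. Where a motif lies on the other strand its reverse complement is in capitals, and in Hbb a match on each strand runs into the other. The stretch of Hbbl1 is described below but not printed, and those of Hbq1b and Hbq1 were not sought.
Hba-a1: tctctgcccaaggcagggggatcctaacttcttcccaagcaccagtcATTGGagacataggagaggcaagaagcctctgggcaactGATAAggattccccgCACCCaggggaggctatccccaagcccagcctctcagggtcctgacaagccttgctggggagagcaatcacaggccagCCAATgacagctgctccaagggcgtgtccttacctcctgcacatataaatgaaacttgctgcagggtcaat
Hba-a2: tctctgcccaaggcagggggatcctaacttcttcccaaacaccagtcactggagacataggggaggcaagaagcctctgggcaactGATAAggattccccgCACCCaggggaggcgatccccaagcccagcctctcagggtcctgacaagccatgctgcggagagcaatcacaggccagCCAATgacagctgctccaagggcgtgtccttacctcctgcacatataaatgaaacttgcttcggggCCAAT
Hba-a3: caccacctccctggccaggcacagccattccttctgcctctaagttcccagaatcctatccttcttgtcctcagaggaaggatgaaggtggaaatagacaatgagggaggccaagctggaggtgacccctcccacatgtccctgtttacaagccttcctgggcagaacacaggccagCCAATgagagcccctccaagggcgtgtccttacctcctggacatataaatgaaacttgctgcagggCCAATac
Hbb: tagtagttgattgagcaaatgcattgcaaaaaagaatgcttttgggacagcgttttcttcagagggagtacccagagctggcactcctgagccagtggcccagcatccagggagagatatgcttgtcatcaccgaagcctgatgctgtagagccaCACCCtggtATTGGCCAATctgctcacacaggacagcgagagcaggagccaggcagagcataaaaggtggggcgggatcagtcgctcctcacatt
Hbb-bs: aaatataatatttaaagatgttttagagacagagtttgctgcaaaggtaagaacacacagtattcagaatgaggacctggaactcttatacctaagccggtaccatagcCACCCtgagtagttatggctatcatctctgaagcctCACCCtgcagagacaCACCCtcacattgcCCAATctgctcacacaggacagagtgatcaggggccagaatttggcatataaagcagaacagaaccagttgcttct

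The stretches of Hba-a1 and Hba-a2 were identical at 96.4% of 250 aligned positions, with 9 mismatches. Each held 1 match to GATAA, 1 to CACCC and 2 to CCAAT, and all 3 motifs occur together in 3.39% of 33465 annotated stretches of the same length. Hba-a3 was 62.4% identical to Hba-a1, with 2 matches to CCAAT and none to the other motifs. Among the beta-like genes, Hbb held 1 match to CACCC and 2 to CCAAT, and Hbb-bs held 3 to CACCC and 1 to CCAAT. Hbbl1, which shares probe sets with Hbb-bs, was 93.3% identical to it and held 2 matches to CACCC and 1 to CCAAT. At least 1 match was found in 23.5% of all stretches for GATAA, 49.2% for CACCC and 34.0% for CCAAT, so single matches are common.

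Globin signal was higher in Dahl(S) kidneys than in Lewis kidneys, by amounts that ranged from a small one for the 2 brightest alpha globin probe sets, whose direction turned with the scaling, to 1.26- to 1.41-fold for beta globin and 1.49-fold for Hba-a3. The red cell synthase Alas2 was higher too, 1.47-fold, while Alad was lower except in signals left unnormalized. Alas1, Fech, Urod and Slc4a1ap passed no test in either direction. Values are deposited array signals after quantile normalization, on the log2(signal + 16) scale, and differences are Dahl(S) minus Lewis. The test was limma's moderated test across 15797 probe sets with enough signal, with a threshold of 0.05 on the Benjamini-Hochberg adjusted p.

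Of the 14 probe sets, 13 were tested, and 7 were called higher in Dahl(S), 1 lower and 5 neither. Among all tested probe sets 8.50% were called higher and 7.75% lower. The median difference was 0.17 over the 13 probe sets and 0.00 over all tested. All 3 Dahl(S) values lay above all 3 Lewis values for 8 of the 13, against 17.6% of all tested probe sets. Several of the 13 read the same near-copy globin genes on the same arrays, so these counts are not of independent measurements. With 3 arrays against 3, an exact two-sided permutation test of a single probe set cannot go below p = 0.1, and these 8 and Alad stood at that value. Nothing in the sources used here says more of the replicates than that each was a separate rat. In a whole-kidney extract, more cells of a type and more RNA per cell cannot be told apart.

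**Figure D1:**
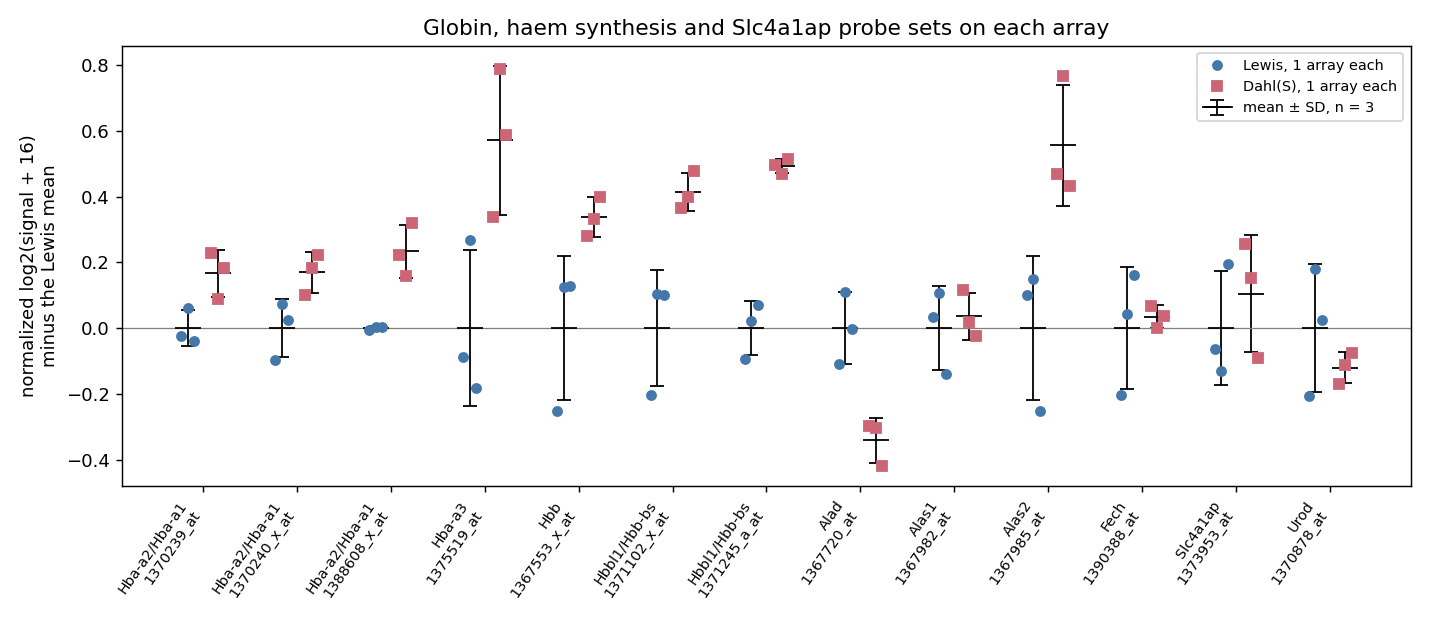
Normalized log2(signal + 16) of the 13 tested probe sets, minus the Lewis mean of each, on every array. Circles are the 3 Lewis arrays, squares the 3 Dahl(S) arrays, and bars the mean ± SD (n = 3 each); the squares lie above the circles for the 7 globin probe sets and Alas2 and below them for Alad.

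Alpha globin was read by 4 tested probe sets. Hba-a3, an alpha-like gene, had a probe set of its own. Its deposited signals were 218, 551 and 303 in Lewis and 581, 874 and 632 in Dahl(S). After normalization these became 8.58, 8.93 and 8.48 against 9.002, 9.45 and 9.25, so that the strains did not overlap, although the highest Lewis array and the lowest Dahl(S) array were close. The difference was 0.57 (SE 0.13, 95% interval 0.28 to 0.86, limma adjusted p = 0.0117). Without Dahl(S) replicate 2, the highest array, it was 0.46 and no longer called (limma adjusted p = 0.0659, with 0.00164 to 0.0659 over 16 alternatives).

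The 3 probe sets shared by Hba-a2 and Hba-a1, the main adult alpha globin genes, differed by less. For 1388608_x_at the normalized values were 11.74, 11.75 and 11.75 in Lewis and 11.97, 11.91 and 12.07 in Dahl(S), a difference of 0.23 (SE 0.06, limma adjusted p = 0.0151). The call was lost without Dahl(S) replicate 1 (0.23, limma adjusted p = 0.0565) and without replicate 3 (0.19, limma adjusted p = 0.127), against 0.0128 to 0.326 over 15 alternatives. For 1370239_at they were 12.87, 12.95 and 12.85 against 13.12, 12.98 and 13.07, a difference of 0.17 (SE 0.05) that just passed (limma adjusted p = 0.0446). That call was lost when any 1 array other than Lewis replicate 2 was left out, with differences of 0.14 to 0.21 over all 6 such fits. The related probe set 1370240_x_at, at 12.72, 12.89 and 12.84 against 12.92, 13.00 and 13.04, differed by as much, 0.17 (SE 0.06), and missed the threshold (limma adjusted p = 0.0587). The groups were apart in each of the 3, but by little. Endings in _x_at mark sets with probes that can also bind other transcripts.

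The direction of 2 of these 3 probe sets, 1370239_at and 1370240_x_at, depended on the scaling. Divided by the median signal of its own array, 1370239_at stood at 141, 136 and 124 in Lewis and 131, 112 and 136 in Dahl(S), which overlap. When the arrays were brought only to a common median, its difference was 0.007 and that of 1370240_x_at was -0.001, while the median over all tested probe sets was 0.06. Relative to that median they were -0.057 and -0.065, and 1388608_x_at, which was positive under every scaling tried, was 0.11. Hba-a3 was not sensitive to this, at 0.60 relative to the median.

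Beta globin was read by 3 probe sets, all called higher in Dahl(S). Hbb, measured with 1367553_x_at, had signals of 2293, 5497 and 4071 in Lewis and 5561, 6073 and 5605 in Dahl(S). The normalized values were 11.77, 12.15 and 12.15 against 12.31, 12.36 and 12.42, with Lewis replicate 1 standing low. The difference was 0.34 (SE 0.09, 95% interval 0.14 to 0.53, limma adjusted p = 0.0225). Without Lewis replicate 1 it was 0.20 and still called. It was not called without Dahl(S) replicate 2 (0.34, limma adjusted p = 0.0713) or replicate 3 (0.31, limma adjusted p = 0.0887), against 0.00434 to 0.216 over 16 alternatives. The call was also lost with a common median (0.28, limma adjusted p = 0.169), without a filter, without the variance trend and in the deposited signals. Divided by the median signal of its array, Hbb stood at 58.8, 78.5 and 75.5 in Lewis and 78.7, 74.5 and 88.1 in Dahl(S), which overlap.

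The 2 probe sets of Hbbl1 and Hbb-bs, near-identical beta-like genes whose reads on the array cannot be split, gave the firmest calls. For 1371245_a_at the signals were 1172, 2499 and 1960 in Lewis and 3201, 3413 and 3002 in Dahl(S), so that the strains were apart even before normalization. The normalized values of 10.91, 11.02 and 11.07 against 11.49, 11.47 and 11.51 differed by 0.49 (SE 0.06, 95% interval 0.36 to 0.63, limma adjusted p = 0.000173), a 1.41-fold difference. For 1371102_x_at, values of 10.33, 10.63 and 10.63 stood against 10.89, 10.93 and 11.01, a difference of 0.41 (SE 0.09, limma adjusted p = 0.0058). Both remained called whichever array was left out, with 0.44 to 0.53 for the first and 0.31 to 0.47 for the second. Neither was called in the deposited signals, where the first gave 0.83 (limma adjusted p = 0.12, with 0.000105 to 0.12 over 15 alternatives). With arrays scaled only to a common median, the second missed the threshold (0.45, limma adjusted p = 0.0531, with 0.00261 to 0.164 over 15 alternatives).

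**Figure D2:**
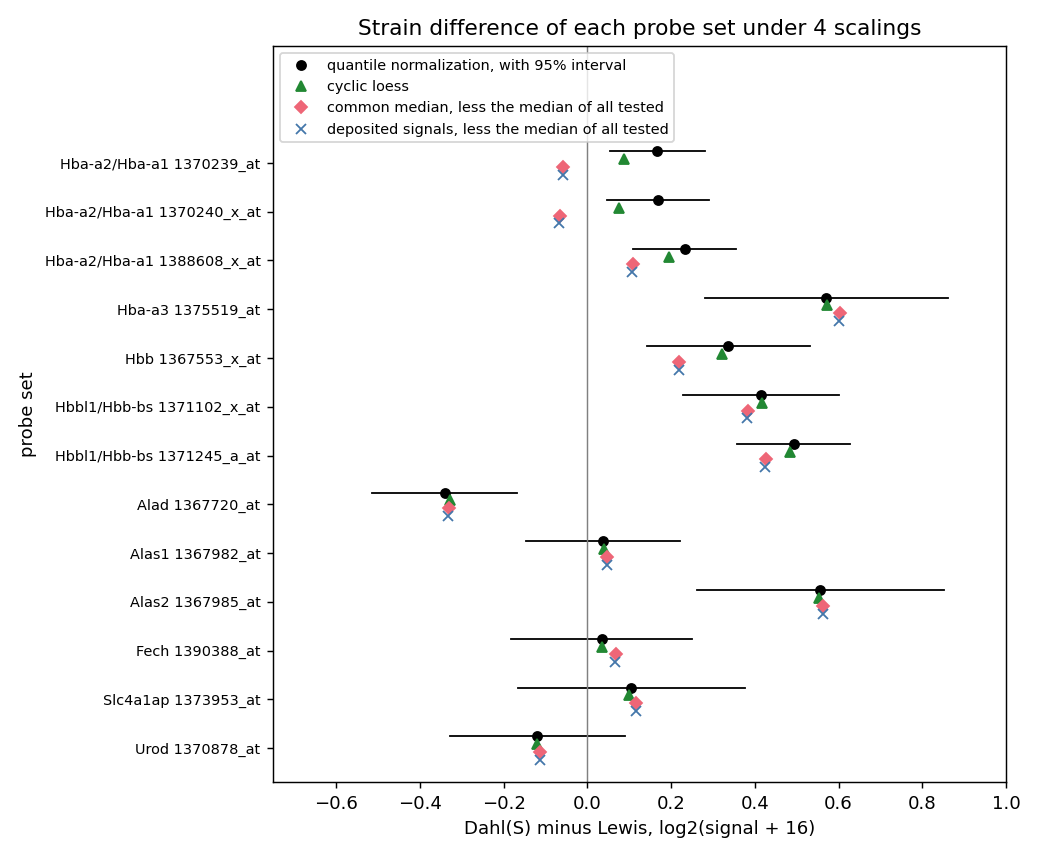
Dahl(S) minus Lewis on the log2(signal + 16) scale for each tested probe set under 4 scalings, with the 95% interval of the quantile-normalized fit as a line; for the common-median and unnormalized signals the median of all tested probe sets is subtracted. Hba-a3, the beta globins, Alas2 and Alad keep their side of 0 in all 4, and the first 2 probe sets of Hba-a2 with Hba-a1 change side.

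Whether beta globin differed more than alpha globin was examined per array, as the mean of the 3 beta probe sets minus the mean of the 4 alpha probe sets, each centred on its mean over the 6 arrays. This was -0.19, -0.08 and 0.08 in Lewis and 0.09, 0.03 and 0.07 in Dahl(S). The strains overlapped, and the difference of 0.13 gave p = 0.3 in an exact two-sided permutation test. The alpha mean joins unlike probe sets: Hba-a3 differed by 0.57 and those of Hba-a2 with Hba-a1 by 0.17 to 0.23. Beta globin was not tested against Hba-a2 and Hba-a1 alone. The mean of all 7 globin probe sets per array was -0.28, -0.08 and -0.16 in Lewis and 0.12, 0.18 and 0.22 in Dahl(S), with means of -0.17 ± 0.10 and 0.17 ± 0.05 (SD, n = 3).

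The theta-like, embryonic and fetal-type globins that had a probe set gave little signal. The probe set of Hbq1b and Hbq1, theta-like globins, read 40.5, 47.4 and 46.8 in Lewis and 39.2, 65.2 and 30.4 in Dahl(S), overlapping, and did not pass the filter on low signal. The embryonic and fetal-type genes Hbz, Hbe1, Hbe2 and Hbg1 each had a probe set, with signals of at most 15.1 on any array, and 0 of these 4 were tested. Every tested globin probe set was thus one of adult genes.

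Alas2, the first and rate-setting enzyme of haem synthesis in red cell precursors, had signals of 82.4, 161 and 88.4 in Lewis and 206, 292 and 183 in Dahl(S). Every Dahl(S) signal exceeded every Lewis signal, both as deposited and after normalization (7.24, 7.28 and 6.88 against 7.60, 7.90 and 7.57). The difference was 0.56 (SE 0.14, 95% interval 0.26 to 0.85, limma adjusted p = 0.0147), or 1.47-fold. It was the only call among these genes in the deposited signals without normalization, at 0.97 there or 0.56 relative to the median of all tested. Without Dahl(S) replicate 2 it was 0.45 and missed the threshold (limma adjusted p = 0.08, with 0.00519 to 0.08 over 15 alternatives). Its signals were 1.64 to 3.58 times the median signal of their array.

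Alas1, the synthase of other tissues, read 484, 1026 and 653 in Lewis and 1004, 1025 and 826 in Dahl(S). Normalized values of 9.70, 9.77 and 9.53 overlapped with 9.78, 9.69 and 9.64. The difference was 0.04 (95% interval -0.15 to 0.22, limma adjusted p = 0.815), an interval that does not hold the difference measured for Alas2.

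Alad, which joins 2 molecules of aminolevulinate, was the 1 gene among these called lower in Dahl(S). Its normalized values were 9.97, 10.19 and 10.07 in Lewis and 9.78, 9.77 and 9.66 in Dahl(S), without overlap. The difference was -0.34 (SE 0.08, 95% interval -0.51 to -0.17, limma adjusted p = 0.0117), so that Lewis was 1.27-fold higher. In the deposited signals, where the median of all tested probe sets was 0.41 higher in Dahl(S), the difference turned to 0.07, or -0.33 relative to that median. Without Dahl(S) replicate 3 it was -0.30 and missed the threshold (limma adjusted p = 0.0818, with 0.00274 to 0.865 over 16 alternatives), and it missed it too with arrays scaled to a common median (-0.27).

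Urod, which trims the side chains of uroporphyrinogen, read 9.56, 9.95 and 9.79 in Lewis and 9.60, 9.65 and 9.69 in Dahl(S) after normalization. The strains overlapped, and the difference was -0.12 (95% interval -0.33 to 0.09, limma adjusted p = 0.439). Fech, the last enzyme, read 8.67, 8.92 and 9.03 against 8.94, 8.87 and 8.91, a difference of 0.03 (95% interval -0.18 to 0.25, limma adjusted p = 0.858). Slc4a1ap read 7.47, 7.41 and 7.73 against 7.79, 7.69 and 7.44, a difference of 0.11 (95% interval -0.17 to 0.38, limma adjusted p = 0.619). For all 3 the SD of the Lewis arrays, 0.17 to 0.19, exceeded the difference.

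Among the haem synthesis genes as a list, with mitochondrial carriers and transporters included, 17 of 18 probe sets of 15 genes were tested. The probe set of Alas2 was the 1 called higher and 4 were called lower, and the median difference was -0.12 against 0.00 over all tested. Of all tested probe sets 8.50% were called higher and 7.75% lower. At an unadjusted p under 0.05 the counts were 1 and 6. The mitochondrial transporter Abcb10, which takes part in the handling of haem precursors in red cell precursors, was lower on both of its probe sets. For 1390781_at the normalized values were 9.97, 9.77 and 9.92 in Lewis and 8.94, 8.99 and 8.98 in Dahl(S), a difference of -0.92 (SE 0.08, limma adjusted p = 9.4e-06). For 1382963_at the difference was -1.09 (SE 0.14, limma adjusted p = 0.000212). Tmem14c, a mitochondrial protein needed for porphyrin import, was lower by a small amount (-0.24, SE 0.07, limma adjusted p = 0.0481). The call for Tmem14c was lost when any 1 array other than Lewis replicate 1 was left out, with -0.27 to -0.22 over all 6 such fits, and without Dahl(S) replicate 3 the list had 2 lower calls.

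Other enzymes of the chain passed no test. Uros differed by 0.17 on 1380137_at, Cpox by -0.10 and Ppox by -0.22, with limma adjusted p of 0.476, 0.636 and 0.131. The Ppox strains did not overlap.

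**Figure D3:**
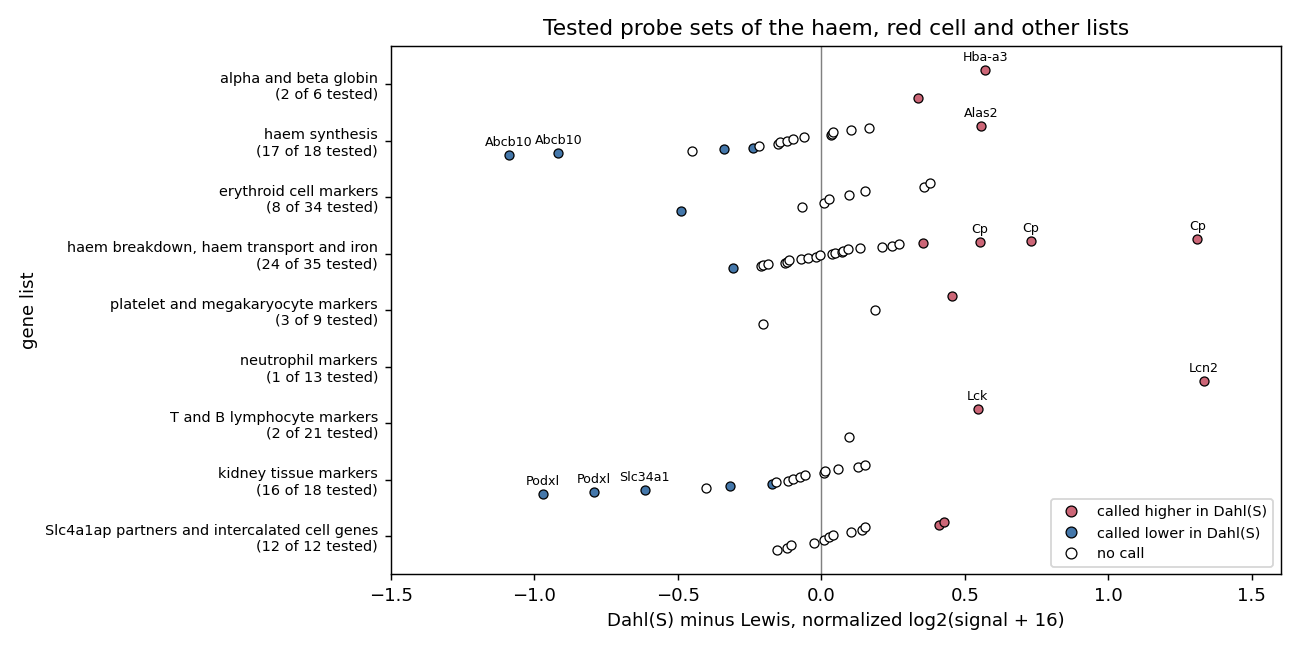
Dahl(S) minus Lewis, normalized log2(signal + 16), for each tested probe set of 9 gene lists; filled points passed the limma threshold and gene names mark calls beyond 0.5 in size. In the haem synthesis row Alas2 is the only filled point on the right, and in the erythroid row 1 point of 8, of Epb41, is filled, on the left.

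Other genes of red cells and their precursors were mostly too dim to test. Of 34 erythroid probe sets, covering 22 genes, 8 were tested, 0 were called higher by limma and 1 was called lower, with a median difference of 0.06. With 8.50% and 7.75% of all tested probe sets called, these counts are near the background. At an unadjusted p under 0.05, 1 of the 8 was higher, Gypc. The lower one was Epb41, a protein of the red cell skeleton also made in other tissues, at -0.49 (SE 0.11, limma adjusted p = 0.00882) on 1392607_at, while its other probe set gave 0.01. Gypc, a glycophorin, read 6.88 ± 0.22 in Lewis and 7.23 ± 0.04 in Dahl(S) (SD, n = 3), a difference of 0.36 that missed the threshold (limma adjusted p = 0.0792). It was called higher without Lewis replicate 1 and with a common median, with limma adjusted p of 0.0332 to 0.228 over 14 alternatives. Slc4a1, the anion exchanger of red cells and of acid-secreting kidney cells, differed by 0.15 on 1369634_at and 0.03 on 1387656_at, with limma adjusted p of 0.372 and 0.924.

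Several markers of red cell precursors were at or near 0, and others were low but measurable. Ahsp, the chaperone of alpha globin, had signals of 1.1 to 2.9, Car1 0.4 to 3.1, Rhag 1.8 to 6.5 and Epb42 1.2 to 9.1. Klf1, a factor that drives beta globin, read 2.8, 5.0 and 2.7 in Lewis and 8.7, 14.4 and 4.7 in Dahl(S), with ranges that overlapped as deposited and not after normalization. Kel and Xk, which encode linked red cell surface proteins, were named after their values were seen. Kel read 3.7 to 4.1 in Lewis and 13.3 to 27.2 in Dahl(S) on 1374330_at, its other probe set reaching at most 5.3, and Xk read 10.8 to 22.9 against 36.9 to 45.4. The 2 strains were apart for both, at signals too low to be tested. Ank1, also named after its values were seen, went the other way on the untested 1395046_at. Its normalized values of 5.64, 5.47 and 5.49 in Lewis stood above 5.24, 4.82 and 5.04 in Dahl(S), overlapping as deposited. The other probe sets of Ank1 overlapped. Gata1, which drives many red cell genes, read 7.3, 17.4 and 18.3 in Lewis and 29.0, 27.7 and 24.4 in Dahl(S). All 26 untested erythroid probe sets lay below the median signal on every array. Their summed normalized signal was 377 to 398 in Lewis and 405 to 431 in Dahl(S), and that of the whole list 2250 to 2420 and 2270 to 2470.

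**Figure D4:**
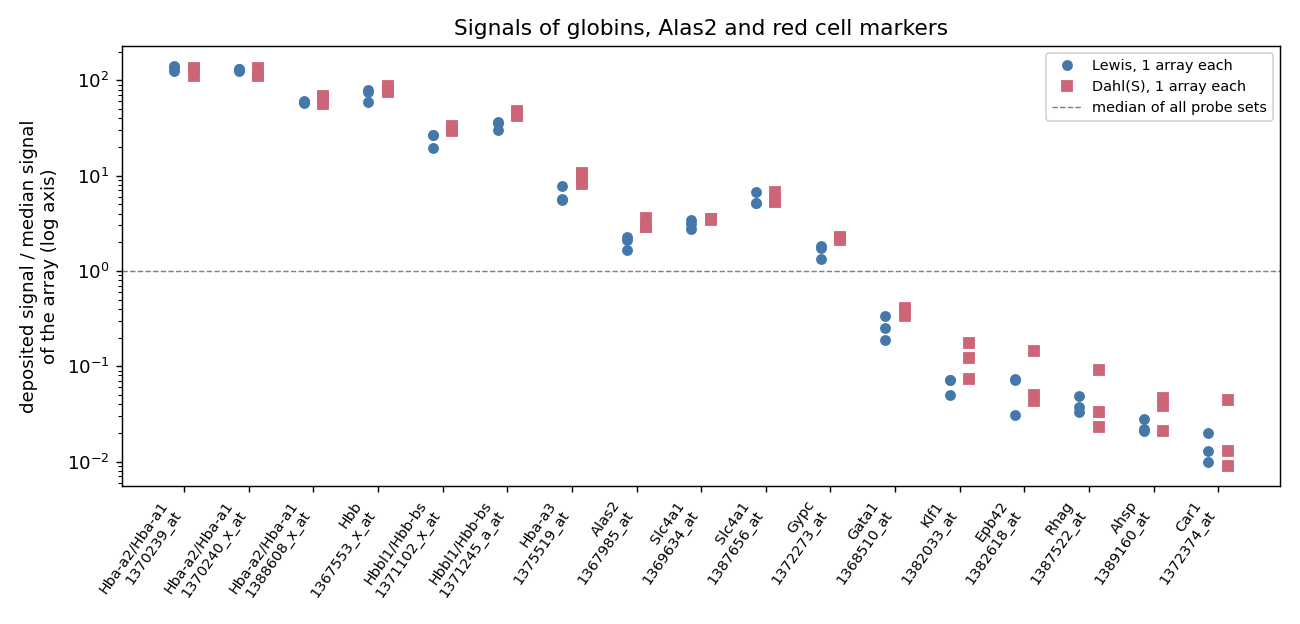
Deposited signal divided by the median signal of its array, on a log axis, for globin, Alas2 and selected red cell probe sets; circles are Lewis and squares Dahl(S), 1 point per array. Signals of different probe sets cannot be compared in height, but Gata1, Klf1, Epb42, Rhag, Ahsp and Car1 lie below the dashed line at the array's median on all 6 arrays.

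Markers of other blood cells were examined for the same reason, and their part in the globin difference was not tested. Few of their probe sets were tested, and 8.50% of all tested probe sets were called higher. Among platelet and megakaryocyte probe sets 3 of 9 were tested, and 1 was called higher: Vwf, also a gene of vessel walls, at 0.46 (SE 0.14, limma adjusted p = 0.0371). It lost its call without any array other than Lewis replicate 2, with 0.29 to 0.60 over all 6 such fits. Pf4 differed by 0.19 (limma adjusted p = 0.358), and Ppbp gave signals of 15.5 to 27.9. Summed signals of this list, Vwf included, were 608 to 728 in Lewis and 730 to 804 in Dahl(S). Its untested probe sets alone summed to 122 to 140 in Lewis and 107 to 127 in Dahl(S), overlapping and not higher in Dahl(S). Among lymphocyte probe sets 2 of 21 were tested, and Lck, a T cell kinase, was called higher at 0.55 (SE 0.14, limma adjusted p = 0.0193), but not without Dahl(S) replicate 2 (0.49) or 3 (0.53). Cd4 differed by 0.10 (limma adjusted p = 0.66). Cd3e and Cd79b stayed below the filter, and the list's summed signal was 519 to 540 against 641 to 711. Among neutrophil probe sets 1 of 13 was tested, Lcn2, which injured tubules also make, at 1.33 (SE 0.11, limma adjusted p = 6.35e-06). The granule gene S100a8 had signals of 0.8 to 9.8. S100a9 read 2.8 to 9.6 in Lewis and 19.1 to 28.8 in Dahl(S), and Fcnb, a ficolin named after its values were seen, 1.6 to 14.5 against 37.4 to 40.6. Camp, likewise named after its values were seen, went the other way, with signals of at most 15.1 in Lewis and 2.4 in Dahl(S). Its strains overlapped as deposited and not after normalization. The neutrophil list summed to 194 to 211 in Lewis and 425 to 492 in Dahl(S), most of it from Lcn2 in Dahl(S), and without Lcn2 to 80.5 to 94.1 against 121 to 166.

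Genes of haem breakdown, haem transport and iron gave 24 tested probe sets of 35, with 4 called higher, 1 lower and a median of 0.04. The shares over all tested probe sets were 8.50% higher and 7.75% lower. Of the 4, 3 belonged to Cp, the iron oxidase ceruloplasmin. On 1368420_at Cp read 7.50 ± 0.08 in Lewis and 8.81 ± 0.13 in Dahl(S) (SD, n = 3), a difference of 1.31 (SE 0.10, limma adjusted p = 3.2e-06), and the other 2 gave 0.73 and 0.55. Lrp1, a receptor for haem bound to hemopexin among many other ligands, differed by 0.35 (limma adjusted p = 0.0276), and not past the threshold without Lewis replicate 3 or any 1 Dahl(S) array. Aco1, an iron-sensing regulator, was lower by a like amount (-0.31, SE 0.07, limma adjusted p = 0.0126), and not past it without Dahl(S) replicate 2 or 3.

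Several genes that clear free haem and haemoglobin were not tested. Hmox1, the inducible haem oxygenase, read 29.4, 62.3 and 32.6 in Lewis and 58.4, 128 and 95.7 in Dahl(S), overlapping at 1 array, and did not pass the filter. The other haem oxygenase, Hmox2, named after its values were seen, differed by -0.13 (limma adjusted p = 0.292). Signals of Cd163, Hp and Hpx, the receptor and plasma carriers of haemoglobin and haem, reached at most 13.1, 28.7 and 26.7. Epo, the kidney hormone that drives red cell formation, gave 0.6 to 6.1. Tfrc, the transferrin receptor, differed by -0.11 and 0.08 on its 2 probe sets, with limma adjusted p of 0.415 and 0.614.

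Around Slc4a1ap, a list of partner and intercalated cell genes had all 12 of its probe sets tested, with 2 called higher and 0 lower by limma and a median of 0.03. Over all tested probe sets the shares were 8.50% and 7.75%. At an unadjusted p under 0.05 the counts were also 2 and 0. Both calls were of Atp6v1g3, a subunit of the proton pump of acid-secreting cells, at 0.43 (SE 0.06) and 0.41 (SE 0.09). The second was not called without Dahl(S) replicate 3.

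The tissue label fitted the signals: among kidney markers 16 of 18 probe sets were tested, and Umod, made by the thick ascending limb, read 13.23 ± 0.02 in Lewis and 13.24 ± 0.01 in Dahl(S) (SD, n = 3). The list had 0 calls higher and 5 lower by limma, where 8.50% and 7.75% of all tested probe sets were called. The 5 were of Podxl and Aqp1, with more than 1 probe set each, and Slc34a1. At an unadjusted p under 0.05 the counts were 0 higher and 7 lower. For the proximal tubule phosphate carrier Slc34a1 1 probe set differed by -0.62 (limma adjusted p = 0.0022) and the other by -0.06. Aqp2 differed by -0.16 (limma adjusted p = 0.139).

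Before normalization the trimmed mean signal was 119 to 230 on the Lewis arrays and 206 to 250 on the Dahl(S) arrays, with Lewis replicate 1 the dimmest. The poly-A spikes, bacterial transcripts added to RNA in this kind of assay, were also higher in Dahl(S). In the deposited signals, without normalization, their levels per array were -0.52 to -0.17 in Lewis against 0.17 to 0.76 in Dahl(S) (exact permutation p = 0.1, the smallest possible). In those signals the median of all tested probe sets was also 0.41 higher in Dahl(S). The hybridization spikes overlapped. Signal from the 3′ end over that from the 5′ end, a sign of RNA quality, overlapped for Gapdh and Actb. For hexokinase it was 0.61 to 0.81 in Lewis and 0.83 to 0.93 in Dahl(S). The part of these differences in the globin result was not tested.

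**Figure D5:**
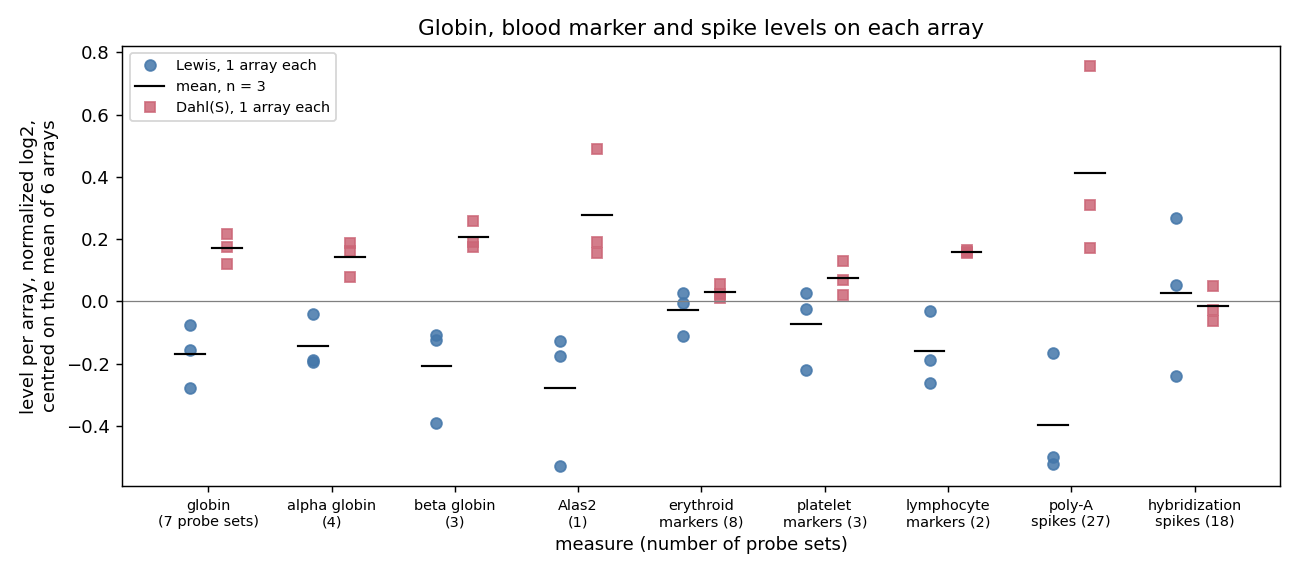
Levels per array, centred on the mean of the 6 arrays, for the globin probe sets, Alas2, other blood marker lists and the spikes. Circles are Lewis, squares Dahl(S) and lines the means of 3 arrays. Gene levels are on the normalized log2 scale. The spikes are on the log2 scale of the deposited signals without normalization, although the axis reads normalized. The globin level is 0.12 to 0.22 in Dahl(S) and -0.28 to -0.08 in Lewis, and the erythroid marker level overlaps. The poly-A spikes are higher in Dahl(S), but on these unlike scales their difference cannot be set against that of the globins.

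The genes whose values over the 6 arrays came closest to the globin level, by root mean square difference of centred values among 12598 tested probe sets with 1 symbol outside these genes, were Eya1, Mrps31, Tril, Ppp1r2 and Nop56. Their distances were 0.02 to 0.03, against a size of 0.18 for the globin profile itself. Eya1 differed by 0.31 and passed no test (limma adjusted p = 0.107). The other 4 differed by 0.31 to 0.38 and were called higher, which follows from how they were chosen. Nop56 lost its call without any 1 Dahl(S) array, Mrps31 without Dahl(S) replicate 2 or 3 and Tril without replicate 3, with differences of 0.29 to 0.43 over these 4 genes whichever array was left out. None of the 5 is a gene of the lists above, and with 6 arrays in 2 strains many genes can share such a profile.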

How the data were processed

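Whole-kidney RNA was hybridized to 1 array per rat, with 3 Dahl(S) and 3 Lewis rats. The deposited values are linear signal intensities of 31099 probe sets that the authors computed with GeneChip Operating Software version 1.4, per the labels; no source used here gives their scaling or detection calls. The number of arrays limits the precision, and the table gives no background signal, so dim probe sets were set aside by a filter instead. Depth does not apply to arrays.

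Leaving out 57 control probe sets, log2(signal + 16) was quantile normalized, with a pseudocount near the lower quartile of the table. A shift shared by most genes therefore cannot be seen, and fold changes of dim genes are understated. A probe set was tested where 3 or more of its 6 values exceeded the overall median, with limma 3.58.1 in R 4.3.3 (eBayes with a variance trend, two-sided, Benjamini-Hochberg adjustment). The adjusted p-value threshold was 0.05, and adjusted p-values are limma's, over all 15797 tested probe sets. The steps were tested on simulated data before use, where recovery was required only of changes larger than those reported here.

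Of 21262 probe sets with symbols in the platform annotation, 20758 matched the RefSeq GRCr8 gene table by gene identifier and took its names. Lists count probe sets with 1 symbol. Promoter stretches were found by symbol for all 6 globin genes sought, in RefSeq's GRCr8 annotation.

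The genes and lists were chosen with earlier results of these data known, so counts and medians describe them. Named were all member probe sets, up to 4 called genes per list, a fixed set of blood, haem and kidney genes, and the 5 genes nearest the globin profile. Alternatives were another scaling, pseudocount, filter, variance prior or summary by gene, a replicate block, and leaving out each array. Same-numbered rats of the 2 strains are different animals, and their numbers were not taken as pairs.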

Additional observations from a re-analysis of the deposited data

How the results depend on the processing

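Over 201 fits of single probe sets under these alternatives, 159 left direction and side of the threshold as reported. Of the others, 33 lost a call and kept their direction, and 3 gained a call. In 1 the call was lost and the sign changed, and 5 changed sign without a call in either fit. The 7 calls higher and 1 lower became 3 and 0 with arrays scaled to a common median, where all tested probe sets gave 1310 calls higher and 705 lower in place of 1343 and 1224, and 1 and 0 in the deposited intensities, where the median of all tested probe sets was 0.41. Without a filter there were 3 higher, without the variance trend 4, and with the mean of each gene's probe sets 3 of 8 genes. In all of these the lower call stayed at 1 unless stated. Pseudocounts of 1 and 64 and the stricter filter gave 7 and 1, and cyclic loess, chosen after seeing the data, 5 and 1. Leaving out 1 array gave 3 to 8 calls higher and 0 to 1 lower. The fewest higher were 3 without Dahl(S) replicate 2 and 4 without replicate 3, and none was lower without replicate 3. Calls over all tested probe sets fell too without Dahl(S) replicates 1, 2 and 3. Those higher went from 8.50% to 4.52%, 4.65% and 4.25%, and those lower from 7.75% to 4.9%, 5.08% and 4.62%. With the deposited intensities, Alad changed sign to 0.075, Tmem14c to 0.19, Aco1 to 0.037 and one Aqp1 probe set to 0.067. None of these was called there, and all lay below the median shift of that setting.

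With the replicate block there were again 7 calls higher and 1 lower. 1370239_at lost its call and 1370240_x_at gained one. Nothing in the labels says that the replicate numbers pair the rats. Deviations of same-numbered rats correlated at -0.05, -0.10 and 0.11, and those of other combinations at -0.07 to 0.13. With 3 arrays per strain such values cannot decide whether a pairing exists.

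Over the alternatives the haem synthesis list gave 0 to 1 calls higher and 0 to 4 lower, the erythroid list 0 to 1 in each direction, and the haem breakdown and iron list 1 to 5 higher and 0 to 2 lower. The platelet, lymphocyte and Slc4a1ap partner lists gave 0 to 1, 0 to 1 and 0 to 2 higher, the neutrophil list 0 to 2 higher, and the kidney list 0 to 5 lower.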
